A study of Mus musculus with 8 samples.

Results

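Loss of FIH at 21% O2 was examined as the difference between FIH-KO and WT Lewis lung carcinoma (LLC) cells, a mouse lung tumor line, in every gene with enough reads to be tested. The members of the comparison were chosen by their labels alone: 2 libraries of FIH-KO cells and 2 libraries of WT cells, all kept at 21% O2 (normoxia) for 16 hours, make up 4 of the 8 RNA-Seq libraries of the study. The other 4 libraries came from the same WT and FIH-KO cells kept at 1% O2 (hypoxia) for 16 hours. They entered the choice of genes with enough reads, the scaling of the libraries and the estimate of spread. They also served to set the normoxic effect beside the hypoxic one. The FIH-KO cells were made from the WT line with a CRISPR/Cas9 guide to exon 2 of Hif1an, which encodes FIH in the mouse, and then by limiting dilution to cells that grew from a single founder. Which founder was sequenced is not stated, so FIH loss and other differences between a founder and its parental line cannot be told apart. The labels do not say that the 2 libraries of a group came from separate cultures, and the p values then measure only the spread between these libraries, which may be technical.

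FIH (factor inhibiting HIF) is an oxygen-dependent hydroxylase. It hydroxylates an asparagine in the C-terminal transactivation domain of the HIF alpha subunits and so keeps them from binding the coactivators p300 and CBP, while the prolyl hydroxylases (PHDs) and VHL control HIF alpha stability. FIH also hydroxylates proteins with ankyrin repeats, such as Notch receptors and members of the NF-kB family. HIF target genes include most enzymes of glycolysis and several genes of angiogenesis and iron uptake.

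In total, 13933 of the 53700 genes in the count table had enough reads to be tested, and 3933 of them (28.2%) differed between FIH-KO and WT cells at an adjusted p under 0.05 in edgeR. Of these, 2116 (15.2% of those tested) were higher and 1817 (13%) were lower in FIH-KO cells. Every log2 fold change given here is FIH-KO over WT, and levels are CPM, the counts of a gene relative to the TMM-scaled size of its library. The median over all tested genes was -0.003, and 2631 of the changed genes (66.9%) moved by less than 1 on the log2 scale. An absolute log2 fold change over 2 was reached by 532 genes (3.82%), with 326 higher (2.34%) and 206 lower (1.48%). Each group held 2 libraries, and the 2 groups did not overlap in 69.4% of all tested genes, beside the 28.2% that passed the test. Lack of overlap alone therefore says little about a gene. Left out in turn, WT replicate 1, WT replicate 2 and FIH-KO replicate 1 each brought the number of changed genes down by over 1.5 times. Counts of gene list members below are therefore given with and without those libraries where they moved by over 1.5 times, except for counts of 1 to 3 members. Counts by chromosome, by kind of RNA, in runs of neighbors and of genes at 3 counts or fewer were not repeated with a library left out, and they may move as much.

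Library totals in normoxia ran from 15582617 to 17597958 counts. The 10 most abundant genes took between 4.94% and 5.37% of a library, and repeat libraries were further apart than counting error alone allows. As markers of the labelled line, Krt8 and Krt18, keratins of simple epithelia, were read in every library (between 150 and 332 CPM), as was the mesenchymal intermediate filament Vim (between 3376 and 5314 CPM). The lung epithelial markers Nkx2-1, Sftpc, Epcam and Krt5 were at 0 counts in all 4 libraries and Cdh1 held at most 1 count. Leukocyte markers Cd3e, Adgre1, Itgam and Ncr1 were at 0, and Ptprc, Csf1r and the 5 endothelial markers held at most 3 counts in any library. The macrophage and lysosome marker Cd68 was read in every library, at 41 and 54 counts in WT and 87 and 77 counts in FIH-KO cells (log2 fold change 0.70, SE 0.36, adjusted p = 0.17). In bulk RNA, fewer cells of a kind and less RNA per cell cannot be told apart.

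**Figure D1:**
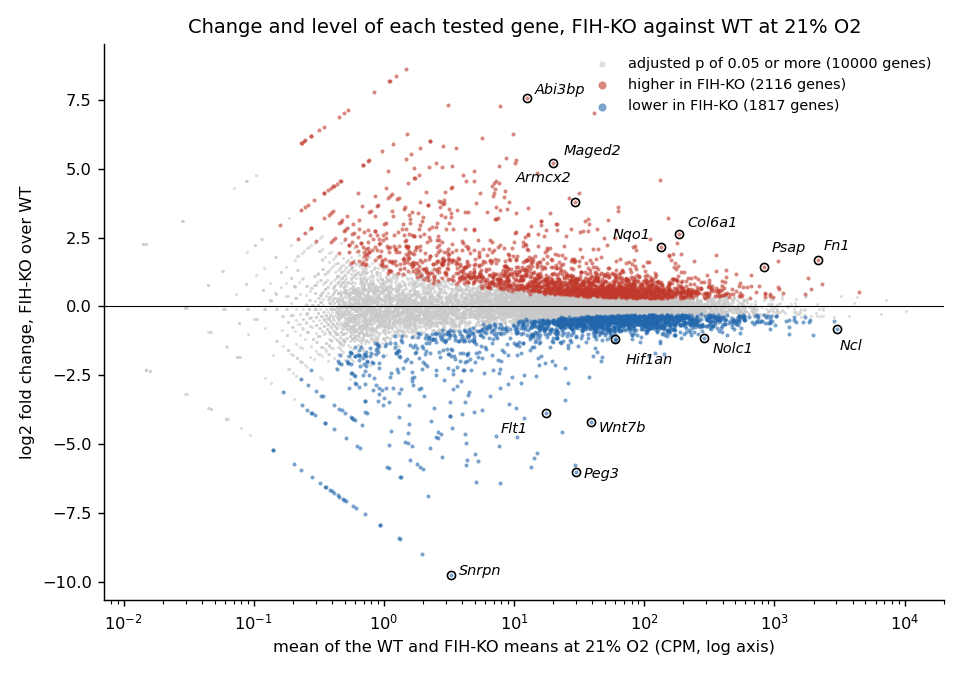
Each point is a tested gene, with its mean level on the x axis (CPM, log axis) and its log2 fold change (FIH-KO over WT, 21% O2) on the y axis; red marks the 2116 genes that were higher and blue the 1817 that were lower at an adjusted p under 0.05. Most changed genes lie within 1 of 0, while labeled genes such as Fn1 and Psap combine a high level with a rise and Ncl with a fall.

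The targeted locus was examined first. Hif1an (ENSMUSG00000036450.5, GRCm39, chromosome 19, 44551286 to 44568723, plus strand) was read at 84.6 and 82.3 CPM in the WT libraries and at 34.8 and 37.7 CPM in the FIH-KO libraries. The groups did not overlap, and the log2 fold change was -1.20 (SE 0.12, adjusted p = 3.1e-05, edgeR). The count is over the whole gene, so it does not show whether the remaining transcripts carry an edit. The study checked the edit by sequencing a PCR product, and its primers, shown because they mark the region examined, matched GRCm39 exactly. The forward primer lies on the plus strand at chr19:44551739-44551758 and the reverse primer on the minus strand at chr19:44552100-44552119, so the product of 381 bases (chr19:44551739-44552119) covers most of exon 2 (44551729 to 44551979, 1 of 8 exons) and part of the next intron.
Forward primer: tgctgaccgacacaaacctt
Reverse primer: gaactcaaagcgcagagcag

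Among the proteins that set HIF activity, the HIF alpha subunit Hif1a, the PHDs Egln1 and Egln3 and the ubiquitin ligase component Vhl did not pass the test. The PHD Egln2 was at 34.7 and 33.65 CPM in WT and at 47.6 and 47.2 CPM in FIH-KO cells (log2 fold change 0.47, SE 0.14, adjusted p = 0.026, edgeR). Its call was lost when any of the normoxic libraries was left out. The genes with the largest rises were partners and cofactors read at low levels in WT cells. Of 16 tested genes of the HIF pathway, 5 were higher (31.2%) and 2 lower (12.5%), beside 15.2% and 13% of all tested genes. The 2 lower ones were Arnt and the targeted Hif1an itself. The median was 0.27 beside -0.003 over all tested genes. It ran from 0.038 to 0.287 over the alternative fits and was 0.066 at 1% O2. Hif1a was at 403 and 371 CPM in WT and at 353 and 316 CPM in FIH-KO cells, a log2 fold change of -0.21 (SE 0.13, adjusted p = 0.26). Arnt2, a paralog of the HIF beta subunit that is best known from the nervous system, was at 0.0643 and 0.533 CPM in WT and at 6.01 and 5.26 CPM in FIH-KO cells. Both FIH-KO libraries lay above both WT libraries, with a log2 fold change of 4.17 (SE 0.50, adjusted p = 0.00013). Arnt, the usual HIF beta subunit, was lower by contrast, at 73.2 and 84.0 CPM in WT and 57.5 and 57.3 CPM in FIH-KO cells (log2 fold change -0.46, SE 0.11, adjusted p = 0.011), a call that was lost without WT replicate 2 or without FIH-KO replicate 1. Crebbp, which encodes the coactivator CBP, rose from 61.0 ± 1.55 to 93.1 ± 5.12 CPM (SD, n = 2 each; log2 fold change 0.61, SE 0.12, adjusted p = 0.0031), while its relative Ep300 changed by 0.14 (SE 0.11, adjusted p = 0.38). Cited1, a transactivator that binds CBP and p300, held at most 1 count in a WT library and 2.50 and 2.13 CPM in the FIH-KO libraries, at least 12.5-fold higher against a limit of 3 counts per library. Os9, a lectin of the endoplasmic reticulum that was also described as a HIF1A binding protein, rose by 0.60 on the log2 scale (SE 0.11, adjusted p = 0.0021).

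Of 25 tested glycolysis genes, 9 were lower, 2 were higher and 14 did not pass, 6 had a fold change above 0, and the median was -0.35. Summed over the 25 genes, the level was 17080 and 15680 CPM in the WT libraries and 12750 and 12600 CPM in the FIH-KO libraries. Pgam1, the phosphoglycerate mutase of glycolysis, was at 333 and 284 CPM in WT and at 141 and 161 CPM in FIH-KO cells, so the FIH-KO libraries were the lower ones without overlap. Its log2 fold change was -1.03 (SE 0.13, adjusted p = 0.00017), and that of Slc16a3, the lactate exporter MCT4, was -2.44 (SE 0.41, adjusted p = 0.0011; 12.5 and 7.41 CPM in WT, 2.26 and 1.399 CPM in FIH-KO cells). Ldha, which makes lactate from pyruvate, was at 2384 and 1970 CPM in WT and at 1466 and 1497 CPM in FIH-KO cells (log2 fold change -0.56, SE 0.14, adjusted p = 0.0096). The first hexokinase, Hk1, went the other way, from 125 ± 9.58 to 185 ± 16.2 CPM (SD, n = 2 each; log2 fold change 0.56, SE 0.14, adjusted p = 0.010). The calls of Ldha and Hk1 were lost without WT replicate 1 or without FIH-KO replicate 1, and the 2 members that were higher became 0. The count of 9 that were lower was 2 without WT replicate 1, 5 without FIH-KO replicate 1 and 4 without FIH-KO replicate 2. Slc2a1, Hk2, Pgk1 and Pdk1 did not pass (adjusted p = 0.83, 0.079, 0.069 and 0.060).

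Of 31 other HIF targets tested, 5 were higher (16.1%), 6 were lower (19.4%) and 20 did not pass, with a median of 0.006. The shares lay near those over all tested genes (15.2% and 13%). The largest rise among those with the smallest p values was Ddit4, an inhibitor of mTORC1 that is also a target of p53, at 43.5 and 39.0 CPM in WT and 146 and 95.4 CPM in FIH-KO cells (log2 fold change 1.55, SE 0.19, adjusted p = 0.00018). Plod1 and Plod2, lysyl hydroxylases that modify collagen, moved apart: Plod1 rose by 0.70 (SE 0.12, adjusted p = 0.0010) and Plod2 fell by 0.83 on the log2 scale (SE 0.12, adjusted p = 0.00048). Vldlr, a lipoprotein receptor, was at 2.44 and 2.84 CPM in WT cells and held at most 1 count in an FIH-KO library, at least 15.3-fold lower. The carbonic anhydrase Car12 fell from 2.09 ± 0.0538 to 0.256 ± 0.193 CPM (SD, n = 2 each; log2 fold change -2.98, SE 0.58, adjusted p = 0.0028). The median of this list was of the opposite sign with upper-quartile scaling and without WT replicate 2. The number of lower members was 3 without WT replicate 1, and without WT replicate 2 or FIH-KO replicate 1 the number of higher members was 3.

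The HIF-binding core (ACGTG or GCGTG, read on both strands) was looked for around the canonical start site of genes in the GENCODE annotation of GRCm39. The window ran from 250 bases before to 50 bases after that site. It was in 62.6% of 11611 promoters of tested protein-coding genes, in 60.3% of those of genes that were higher and 65.3% of those that were lower, in 17 of 25 glycolysis promoters and in 25 of 31 promoters of the other HIF targets. The core also lies within the E-box CACGTG. The sequences of Pgam1 (chr19:41900091-41900340, plus strand) and Slc16a3 (chr11:120839291-120839540, plus strand), the lower glycolysis genes with the smallest adjusted p that hold the core, are the 250 bases before the start site, with the core in capitals. A match describes the letters only and is no evidence of binding.
Pgam1: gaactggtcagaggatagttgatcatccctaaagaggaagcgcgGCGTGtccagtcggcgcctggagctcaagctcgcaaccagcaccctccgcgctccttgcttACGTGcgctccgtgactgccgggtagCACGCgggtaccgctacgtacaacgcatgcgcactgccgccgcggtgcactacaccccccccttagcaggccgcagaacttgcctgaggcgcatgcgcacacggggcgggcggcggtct
Slc16a3: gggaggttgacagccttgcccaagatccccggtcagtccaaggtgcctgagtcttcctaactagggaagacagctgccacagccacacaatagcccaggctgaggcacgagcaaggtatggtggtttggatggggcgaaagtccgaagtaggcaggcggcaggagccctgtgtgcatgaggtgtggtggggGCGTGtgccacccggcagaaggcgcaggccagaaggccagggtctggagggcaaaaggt

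FIH substrates outside HIF, most of them proteins with ankyrin repeats, were higher in 7 and lower in 4 of 20 tested genes, with a median of 0.23. Notch1, a receptor that is hydroxylated by FIH, was at 24.4 and 18.96 CPM in WT and at 65.1 and 52.9 CPM in FIH-KO cells. The FIH-KO libraries lay clear of the WT libraries, with a log2 fold change of 1.45 (SE 0.21, adjusted p = 0.00042). Notch3 rose from 0.487 ± 0.234 to 4.99 ± 0.231 CPM (SD, n = 2 each; log2 fold change 3.32, SE 0.41, adjusted p = 0.00014). Tnks2, the poly-ADP-ribose polymerase tankyrase 2, fell by 0.64 (SE 0.11, adjusted p = 0.0012), and Nfkb1, which encodes the NF-kB subunit p105, fell by 0.52 (SE 0.12, adjusted p = 0.0057), a call that was lost without WT replicate 2. The number of members that were higher was 3 without WT replicate 1, WT replicate 2 or FIH-KO replicate 1 and 4 without FIH-KO replicate 2, while the number that were lower was 2, 1, 2 and 3.

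**Figure D2:**
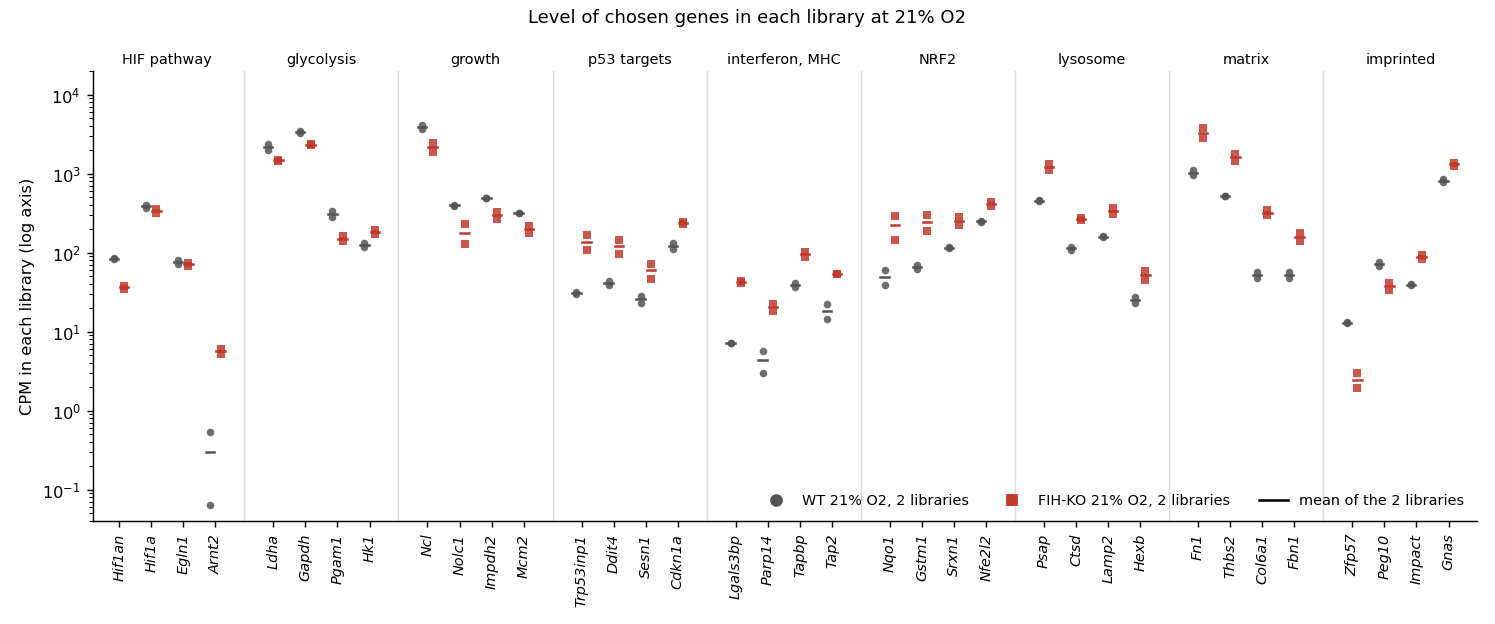
Level of 36 genes in each of the 4 normoxic libraries (CPM, log axis), in 9 groups named above the plot; grey circles are WT libraries, red squares FIH-KO libraries and short lines the mean of 2 libraries. The genes were chosen with their values known, so how many are apart says nothing of all tested genes, of which 69.4% did not overlap. Hif1a (316 to 403 CPM, also without overlap) and Egln1 (67.9 to 79.7 CPM) did not pass the test.

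Of 40 ribosome biogenesis genes, which make and assemble rRNA and its particles, 30 were lower, 0 were higher and 10 did not pass, the median was -0.62, and 0 of the 40 had a fold change above 0. Ncl (nucleolin), which organizes rDNA chromatin, was at 4097 and 3624 CPM in WT and at 1888 and 2423 CPM in FIH-KO cells, a log2 fold change of -0.84 (SE 0.15, adjusted p = 0.0016). Gar1, a core protein of the particles that pseudouridylate rRNA, was at 65.3 and 68.0 CPM in WT and at 26.8 and 38.6 CPM in FIH-KO cells (log2 fold change -1.03, SE 0.16, adjusted p = 0.00065). Its catalytic partner Dkc1 fell by 0.86 (SE 0.14, adjusted p = 0.00085). In each of the 3 genes, FIH-KO replicate 1 was the lowest library. The summed level of the list was 14870 and 13760 CPM in WT and 7660 and 9871 CPM in FIH-KO cells. The count of 30 was 12, 16 and 13 without WT replicate 1, WT replicate 2 and FIH-KO replicate 1, and 0 genes were higher in any of these fits.

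Of 81 tested genes for cytosolic ribosomal proteins 10 were lower (12.3%, beside 13% of all tested genes) and 0 higher (median -0.16), and of 77 for mitochondrial ribosomal proteins 25 were lower and 0 higher (median -0.30). Of 66 translation factors, 22 were lower and 3 higher. Eif4e, which binds the mRNA cap, fell from 265 ± 6.39 to 118 ± 5.61 CPM (SD, n = 2 each; log2 fold change -1.16, SE 0.11, adjusted p = 1.8e-05). Eef2k, the kinase that inhibits elongation factor 2, was at 27.3 and 27.1 CPM in WT and at 62.1 and 53.01 CPM in FIH-KO cells, where it was higher without overlap (log2 fold change 1.08, SE 0.13, adjusted p = 0.00011). Of 20 tRNA synthetases 10 were lower and 0 higher (median -0.33), with Iars, the isoleucyl enzyme, at -0.68 (SE 0.14, adjusted p = 0.0037). Nuclear pore and import genes (25 of 44 lower, 1 higher, median -0.40), RNA helicases (21 of 49 lower, 2 higher, median -0.30) and chaperones (11 of 19 lower, 0 higher, median -0.34) also had more lower than higher members. The chaperones included the mitochondrial chaperonin Hspd1, which fell from 1725 ± 46.7 to 852 ± 143 CPM (SD, n = 2 each; log2 fold change -1.02, SE 0.14, adjusted p = 0.00026). With WT replicate 1 left out, the numbers of lower genes were 2, 9 and 5 for cytosolic ribosomal proteins, mitochondrial ribosomal proteins and translation factors and 3, 9, 7 and 6 for tRNA synthetases, the pore, helicases and chaperones. Without FIH-KO replicate 1 they were 8, 10, 7, 2, 12, 5 and 6, and without WT replicate 2 they were 5, 15, 10, 4, 14, 10 and 6.

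Transcripts for the synthesis of nucleotides and DNA were examined next. Of 28 genes of nucleotide and polyamine synthesis 14 were lower, 0 were higher and 14 did not pass (median -0.42). Impdh2, the rate-limiting enzyme of guanine nucleotide synthesis, was at 486 and 489 CPM in WT and at 270 and 328 CPM in FIH-KO cells (log2 fold change -0.71, SE 0.12, adjusted p = 0.0015). Dhodh, of pyrimidine synthesis, fell by 0.90 (SE 0.15, adjusted p = 0.0013), and Mthfd2, of mitochondrial folate metabolism, fell by 0.74 (SE 0.13, adjusted p = 0.0014). The serine synthesis enzyme Psat1, which feeds that folate pathway, was at 574 and 585 CPM in WT and at 247 and 313 CPM in FIH-KO cells (log2 fold change -1.05, SE 0.15, adjusted p = 0.00036). Of 40 DNA replication genes 15 were lower, 0 were higher and 25 did not pass (median -0.38). Mcm2, of the replicative helicase, fell from 320 ± 0.562 to 197 ± 27.7 CPM (SD, n = 2 each; log2 fold change -0.70, SE 0.12, adjusted p = 0.0015). Mitotic genes were lower in 13 and higher in 1 of 40 (median -0.24). Ect2, which is needed for cytokinesis, was at 189 and 178 CPM in WT and at 90.4 and 95.7 CPM in FIH-KO cells (log2 fold change -0.98, SE 0.17, adjusted p = 0.0015). Of the 3 proliferation markers Mki67, Top2a and Pcna, 0 passed. Without WT replicate 1, WT replicate 2 and FIH-KO replicate 1 the numbers of lower genes were 7, 8 and 7 for nucleotide synthesis, 4, 6 and 2 for replication and 3, 8 and 5 for mitosis, and without FIH-KO replicate 2 mitosis had 8.

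The E-box CACGTG, bound by Myc and by other factors, was in 10.3% of the 11611 promoters, in 10.9% of those of higher genes and in 10.5% of those of lower genes. It was in 9 of the 40 ribosome biogenesis promoters (22.5%), 6 of them among the 30 whose genes were lower. Those of the members with the smallest adjusted p that hold it, Nop2 (chr6:125108570-125108819, plus strand) and Imp4 (chr1:34478682-34478931, plus strand), are shown over the 250 bases before the start site with the E-box in capitals. Nop2, an rRNA methyltransferase, had a log2 fold change of -0.96 (SE 0.19, adjusted p = 0.0033), and Imp4, of the U3 particle, of -0.60 (SE 0.15, adjusted p = 0.0092), a call that was lost without WT replicate 1 or FIH-KO replicate 1.
Nop2: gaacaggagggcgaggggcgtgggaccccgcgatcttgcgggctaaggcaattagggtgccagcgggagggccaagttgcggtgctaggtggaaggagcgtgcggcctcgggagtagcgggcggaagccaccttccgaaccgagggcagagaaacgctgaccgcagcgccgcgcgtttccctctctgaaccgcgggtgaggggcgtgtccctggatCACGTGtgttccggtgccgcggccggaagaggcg
Imp4: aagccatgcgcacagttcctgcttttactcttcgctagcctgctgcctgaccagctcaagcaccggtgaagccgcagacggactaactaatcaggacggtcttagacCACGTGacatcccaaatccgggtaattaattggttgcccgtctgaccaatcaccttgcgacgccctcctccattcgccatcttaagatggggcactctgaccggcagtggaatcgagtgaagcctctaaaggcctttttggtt

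Of 34 tested targets of p53, 15 were higher, 0 were lower and 19 did not pass, and 29 had a fold change above 0, with a median of 0.40. Trp53 itself was at 250 and 274 CPM in WT and at 227 and 263 CPM in FIH-KO cells, where the groups overlapped (log2 fold change -0.10, SE 0.16, adjusted p = 0.69). Cdkn1a, the cyclin-dependent kinase inhibitor p21, was at 134 and 112 CPM in WT and at 246 and 227 CPM in FIH-KO cells, higher without overlap (log2 fold change 0.94, SE 0.18, adjusted p = 0.0023). Trp53inp1, a stress protein that acts with p53, was at 29.6 and 31.3 CPM in WT and at 168 and 109 CPM in FIH-KO cells (log2 fold change 2.18, SE 0.22, adjusted p = 4e-05). Btg2, an antiproliferative deadenylase cofactor, was at 5.21 and 5.57 CPM in WT and at 34.0 and 16.01 CPM in FIH-KO cells (log2 fold change 2.21, SE 0.31, adjusted p = 0.00035). FIH-KO replicate 1 was the highest library for all 3 of these targets. Pmaip1, the BH3-only protein NOXA, rose by 1.19 (SE 0.21, adjusted p = 0.0017), whereas the antiapoptotic Mcl1 fell by 0.54 (SE 0.11, adjusted p = 0.0036). Mxd4, which dimerizes with Max in place of Myc, rose from 16.6 ± 1.92 to 71.2 ± 21.3 CPM (SD, n = 2 each; log2 fold change 2.10, SE 0.24, adjusted p = 8.2e-05). The number of higher p53 targets was 9, 8 and 9 without WT replicate 1, WT replicate 2 and FIH-KO replicate 1.

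**Figure D3:**
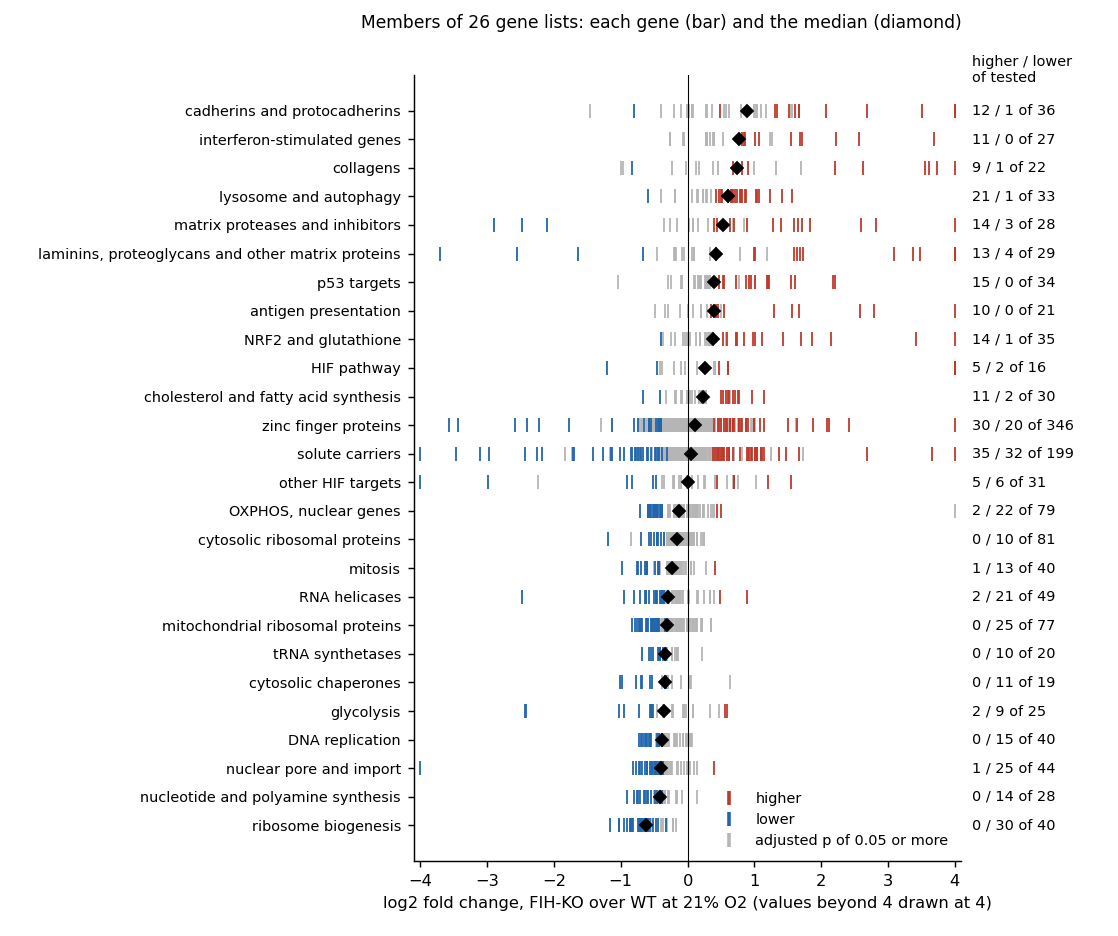
Each bar is a tested gene of 1 of 26 lists, placed at its log2 fold change (FIH-KO over WT, 21% O2, values beyond 4 drawn at 4) and colored by its call; diamonds are list medians, which run from -0.62 in ribosome biogenesis to 0.90 in cadherins and protocadherins, and the numbers at the right are members higher, lower and tested.

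Genes of the interferon response and of MHC class I presentation were higher in part. Of 27 tested interferon-stimulated genes 11 were higher and 0 lower (median 0.77), and 16 did not pass, among them Ifit3 and Usp18 (adjusted p = 0.47 and 0.11). Lgals3bp, a secreted galectin-binding protein, was at 7.26 and 7.17 CPM in WT and at 41.9 and 43.9 CPM in FIH-KO cells, higher without overlap (log2 fold change 2.57, SE 0.15, adjusted p = 8.3e-07). Oas3, a sensor of double-stranded RNA, was at 0.257 and 0.355 CPM in WT and at 4.88 and 3.25 CPM in FIH-KO cells (log2 fold change 3.69, SE 0.49, adjusted p = 0.00026). Ifi27 rose from 4.81 ± 1.16 to 15.8 ± 0.0465 CPM (SD, n = 2 each; log2 fold change 1.71, SE 0.21, adjusted p = 0.00013). Upstream, the kinase Jak1 was at 288 and 307 CPM in WT and at 613 and 476 CPM in FIH-KO cells (log2 fold change 0.87, SE 0.14, adjusted p = 0.00070), the interferon gamma receptor chain Ifngr1 rose by 0.91 (SE 0.15, adjusted p = 0.00081) and the transcription factor Stat2 by 1.23 (SE 0.19, adjusted p = 0.00066). Of 34 genes of interferon and NF-kB signaling, 12 were higher and 2 lower. Without WT replicate 1 and FIH-KO replicate 1, 4 and 5 interferon-stimulated genes were higher, and without WT replicate 1, WT replicate 2 and FIH-KO replicate 1, 7, 5 and 5 signaling genes were higher and 1, 0 and 1 lower.

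In antigen presentation, 10 of 21 tested genes were higher and 0 lower (median 0.40). Tapbp (tapasin), which loads peptide onto MHC class I, was at 36.6 and 41.2 CPM in WT and at 101 and 88.8 CPM in FIH-KO cells, without overlap (log2 fold change 1.29, SE 0.12, adjusted p = 2.6e-05). Tap2, a chain of the peptide transporter, was at 14.3 and 22.1 CPM in WT and at 53.3 and 54.3 CPM in FIH-KO cells (log2 fold change 1.56, SE 0.21, adjusted p = 0.00025). Psmb8, a catalytic subunit of the immunoproteasome, held at most 2 counts in a WT library and 3.63 and 2.97 CPM in the FIH-KO libraries, at least 17.8-fold higher. Among the 37 tested proteasome subunits, the other one that was higher was the immunoproteasome subunit Psmb9, whose call was lost in DESeq2 and without WT replicate 1 or FIH-KO replicate 1, while 13 subunits were lower. Without FIH-KO replicate 1, WT replicate 1 and WT replicate 2, 5, 6 and 6 presentation genes were higher, and 5, 3 and 6 proteasome subunits were lower (8 without FIH-KO replicate 2). Of the leukocyte markers, Cd3e, Adgre1, Itgam, Ncr1 and Ptprc were at 0 counts in both FIH-KO libraries and Csf1r held at most 1, while Cd68 was at 2.64 and 3.199 CPM in WT and at 5.18 and 4.31 CPM in FIH-KO cells. Lyz2, a lysozyme of myeloid and lung cells that was not on the marker list and was picked after its values were seen, was at 0.257 and 0.533 CPM in WT and at 4.88 and 5.99 CPM in FIH-KO cells (log2 fold change 3.74, SE 0.54, adjusted p = 0.00044). The part of Cd68 and Lyz2 in the presentation genes was not tested.

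The interferon element (GAAA, any 2 bases, GAAA, read on both strands) was in 3.28% of the 11611 promoters and in 13 of the 27 tested interferon-stimulated genes (48.1%), 5 of them among the 11 that were higher. The promoters of Ifi27 (chr12:103400167-103400416, plus strand) and Oas3 (chr5:120915730-120915979, minus strand), the higher members with the smallest adjusted p that hold it, are shown over the 250 bases before the start site with the element in capitals.
Ifi27: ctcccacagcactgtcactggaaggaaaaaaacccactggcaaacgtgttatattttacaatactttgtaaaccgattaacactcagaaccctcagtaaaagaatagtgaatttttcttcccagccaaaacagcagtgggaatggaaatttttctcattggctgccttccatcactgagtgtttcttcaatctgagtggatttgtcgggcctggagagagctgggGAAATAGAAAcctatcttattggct
Oas3: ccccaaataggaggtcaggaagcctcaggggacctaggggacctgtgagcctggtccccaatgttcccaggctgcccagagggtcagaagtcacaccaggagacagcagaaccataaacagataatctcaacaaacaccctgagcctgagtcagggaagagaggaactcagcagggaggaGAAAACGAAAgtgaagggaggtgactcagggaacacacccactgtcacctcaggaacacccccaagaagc

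Genes of the NRF2 response and glutathione metabolism, which detoxify electrophiles and peroxides, were higher in 14 and lower in 1 of 35 tested (median 0.38). Gstm1, a glutathione transferase, was at 62.4 and 70.7 CPM in WT and at 298 and 188 CPM in FIH-KO cells (log2 fold change 1.87, SE 0.21, adjusted p = 7.1e-05). Gstm2 rose by 1.43 (SE 0.19, adjusted p = 0.00027), but Gstm genes are close copies of each other and the counting could have split their reads, so the share of each is uncertain. Mgst1, a membrane-bound glutathione transferase, held at most 3 counts in a WT library and was at 13.9 and 8.34 CPM in FIH-KO cells, at least 60.1-fold higher. Ftl1, the ferritin light chain, was at 1138 and 1250 CPM in WT and at 2647 and 2171 CPM in FIH-KO cells, without overlap (log2 fold change 1.013, SE 0.19, adjusted p = 0.0019). FIH-KO replicate 1 was the higher FIH-KO library in all 4 of these genes. The classical targets Hmox1 and Gclm had log2 fold changes of -0.007 (SE 0.37, adjusted p = 0.99) and -0.36 (SE 0.20, adjusted p = 0.21). The number of higher genes was 9 and 8 without WT replicate 1 and FIH-KO replicate 1. The antioxidant element TGACNNNGC was in 13.8% of the 11611 promoters and in 6 of the 35 of this list, 1 of them of a gene that was higher.

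Lysosome and autophagy genes had the largest share of higher members among the lists discussed so far: of 33 tested, 21 (63.6%) were higher and 1 lower, and 29 had a fold change above 0 (median 0.61). Psap (ENSMUSG00000004207.15, chromosome 10, 60113431 to 60138380), the precursor of the saposins that help degrade sphingolipids, was at 449 and 461 CPM in WT and at 1307 and 1117 CPM in FIH-KO cells. The FIH-KO libraries were the higher ones without overlap, with a log2 fold change of 1.41 (SE 0.13, adjusted p = 2.1e-05). Ctsd, the protease cathepsin D, was at 108 and 120 CPM in WT and at 277 and 259 CPM in FIH-KO cells (log2 fold change 1.24, SE 0.12, adjusted p = 3e-05). Lamp2, of the lysosomal membrane, was at 163 and 156 CPM in WT and at 364 and 307 CPM in FIH-KO cells (log2 fold change 1.07, SE 0.11, adjusted p = 5.5e-05). The lower member was Ctsl, the protease cathepsin L (log2 fold change -0.59, SE 0.13, adjusted p = 0.0063), whose call was lost without WT replicate 1 or FIH-KO replicate 1. The summed level of the list was 5288 and 5254 CPM in WT and 8051 and 7271 CPM in FIH-KO cells. The count of 21 was 14 without WT replicate 1 or WT replicate 2.

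The full CLEAR element bound by TFEB was in 0 of the 33 promoters of this list, beside 0.543% of all 11611. The E-box CACGTG within that element was in 9 of the 33 promoters (27.3%, beside 10.3% of all 11611). Of these promoters, 5 were among the 21 whose genes were higher. Those of Ctsd (chr7:141941776-141942025, minus strand) and Gabarap (chr11:69881638-69881887, plus strand), the latter an autophagosome protein with a log2 fold change of 0.70 (SE 0.13, adjusted p = 0.0023), are shown over the 250 bases before the start site with the E-box in capitals.
Ctsd: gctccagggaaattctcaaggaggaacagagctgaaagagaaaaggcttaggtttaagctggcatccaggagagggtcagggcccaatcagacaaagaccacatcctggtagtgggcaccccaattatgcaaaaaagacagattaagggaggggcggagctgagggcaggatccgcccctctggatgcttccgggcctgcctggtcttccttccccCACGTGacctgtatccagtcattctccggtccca
Gabarap: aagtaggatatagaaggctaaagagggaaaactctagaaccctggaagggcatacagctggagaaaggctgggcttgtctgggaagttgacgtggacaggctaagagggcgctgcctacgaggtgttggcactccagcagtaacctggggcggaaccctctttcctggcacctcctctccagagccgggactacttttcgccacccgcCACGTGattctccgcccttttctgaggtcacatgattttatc

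Among genes of the extracellular matrix, of 22 tested collagens 9 were higher and 1 lower (median 0.74), of 29 laminins, proteoglycans and other matrix proteins 13 were higher and 4 lower (median 0.43), and of 28 matrix proteases and inhibitors 14 were higher and 3 lower (median 0.53). Fn1 (fibronectin) was at 954 and 1100 CPM in WT and 2843 and 3740 CPM in FIH-KO cells (log2 fold change 1.68, SE 0.17, adjusted p = 3.5e-05). Col6a1, a chain of collagen VI, was at 47.6 and 56.5 CPM in WT and at 300 and 342 CPM in FIH-KO cells (log2 fold change 2.62, SE 0.17, adjusted p = 1.9e-06). In both genes the FIH-KO libraries lay clear of the WT libraries. Thbs1, the matricellular protein thrombospondin 1, was at 10.2 and 10.7 CPM in WT and at 88.3 and 144 CPM in FIH-KO cells (log2 fold change 3.48, SE 0.28, adjusted p = 8.7e-06), and its paralog Thbs2 rose by 1.64 (SE 0.16, adjusted p = 3e-05). Col12a1, which links collagen fibrils, rose from 0.699 ± 0.352 to 9.54 ± 0.359 CPM (SD, n = 2 each; log2 fold change 3.74, SE 0.32, adjusted p = 1.3e-05). Not every matrix gene rose. Bgn (biglycan), a small proteoglycan, was at 19.8 and 12.97 CPM in WT and at 2.92 and 2.63 CPM in FIH-KO cells (log2 fold change -2.56, SE 0.36, adjusted p = 0.00036).

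Of the proteases, Mmp19 was at 7.26 and 6.34 CPM in WT and at 51.7 and 44.3 CPM in FIH-KO cells (log2 fold change 2.82, SE 0.16, adjusted p = 6.3e-07), and Mmp3 (stromelysin 1) at 102 and 131 CPM in WT and at 325 and 407 CPM in FIH-KO cells (log2 fold change 1.65, SE 0.18, adjusted p = 6.1e-05). Loxl3, a lysyl oxidase that crosslinks matrix, rose by 1.83 (SE 0.20, adjusted p = 5.9e-05), and the aggrecanase-like protease Adamts9 fell by 2.89 (SE 0.36, adjusted p = 0.00015). Among matrix receptors, 6 of 18 integrins were higher and 0 lower. Itgb5, which pairs with the alpha V chain, was at 51.7 and 55.9 CPM in WT and at 162 and 167 CPM in FIH-KO cells, and the laminin receptor chain Itga7 at 31.2 and 28.3 CPM in WT and at 89.1 and 95.3 CPM in FIH-KO cells. Both were higher without overlap, by 1.61 (SE 0.12, adjusted p = 4.5e-06) and 1.63 (SE 0.13, adjusted p = 8.1e-06). Cadherins and protocadherins, adhesion molecules of the cell surface, were higher in 12 and lower in 1 of 36 tested of 92 in the table (median 0.90). Pcdh19 was at 3.92 and 2.96 CPM in WT and at 56.6 and 62.4 CPM in FIH-KO cells (log2 fold change 4.11, SE 0.23, adjusted p = 5.5e-07). Several others lie in the clustered protocadherin arrays, whose members share exons and whose reads could be split in counting, so their separate values are uncertain. Without WT replicate 1, WT replicate 2 and FIH-KO replicate 1, 7, 8 and 9 matrix proteases and inhibitors were higher (9 without FIH-KO replicate 2), and so were 4 integrins in each case and 9, 8 and 8 cadherins and protocadherins. Without WT replicate 1, 6 collagens were higher, 2 other matrix proteins were lower and 1 protease or inhibitor was lower.

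Receptors and ligands on the cell surface changed in both directions. Egfr, the receptor of epidermal growth factor, was at 28.3 and 31.8 CPM in WT and at 142 and 126 CPM in FIH-KO cells (log2 fold change 2.16, SE 0.15, adjusted p = 2e-06). Ddr1, a receptor for collagen, rose by 1.33 (SE 0.14, adjusted p = 4.7e-05). Flt1, the VEGF receptor 1, was at 31.4 and 34.4 CPM in WT and at 2.98 and 1.57 CPM in FIH-KO cells, lower without overlap (log2 fold change -3.86, SE 0.26, adjusted p = 2e-06). Ephb4, an ephrin receptor of vein endothelium and tumors, fell by 2.13 (SE 0.24, adjusted p = 8.3e-05). The ligand Wnt7b was at 60.5 and 87.2 CPM in WT and at 4.29 and 3.69 CPM in FIH-KO cells (log2 fold change -4.21, SE 0.21, adjusted p = 5.5e-07), and Dkk2, a secreted modulator of Wnt signaling, fell by 1.75 (SE 0.25, adjusted p = 0.00038). Ptn (pleiotrophin), a heparin-binding growth factor, was at 8.29 and 10.8 CPM in WT and at 122 and 112 CPM in FIH-KO cells (log2 fold change 3.61, SE 0.33, adjusted p = 1.9e-05). Vegfd, a lymphangiogenic ligand, rose by 1.74 (SE 0.17, adjusted p = 3.7e-05), and Bmp2, of the TGF-beta superfamily, rose from 0.793 ± 0.303 to 13.02 ± 2.81 CPM (SD, n = 2 each; log2 fold change 4.01, SE 0.35, adjusted p = 1.4e-05). The hormone Stc1 (stanniocalcin 1) was at 26.4 and 62.9 CPM in WT and at 1.07 and 2.69 CPM in FIH-KO cells, so that the WT libraries differed between themselves and still lay above both FIH-KO libraries (log2 fold change -4.55, SE 0.44, adjusted p = 2.9e-05).

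Imprinted genes, which are expressed from the allele of 1 parent, included some of the deepest losses. Of 21 tested, 6 were higher and 6 lower, with a median of -0.062. The losses centered on a domain of paternally expressed genes on chromosome 7. Snrpn (ENSMUSG00000102252.6, 59630427 to 59820763), a small ribonucleoprotein gene whose start is the imprinting center of that domain, was at 6.49 and 6.69 CPM in WT cells and at 0 counts in both FIH-KO libraries, at least 38.0-fold lower. Ndn (necdin, 61995473 to 62000010), a MAGE family protein, was at 3.98 and 3.02 CPM in WT and held at most 2 counts in an FIH-KO library, at least 20.2-fold lower, and Peg12 (62111619 to 62114258) was at 4.63 and 4.09 CPM in WT and held at most 1 count in an FIH-KO library, at least 25.2-fold lower. Mkrn3 and the noncoding Snhg14 of the same domain, named after their values were seen, were at least 4.59-fold and 15.6-fold lower. Snhg14 lies next to Snrpn on the same strand, and transcripts that run through both could be counted for either. Ube3a, the neighbor at 58878492 to 58961832 that is expressed from both alleles outside neurons, was at 144 and 141 CPM in WT and at 136 and 138 CPM in FIH-KO cells (log2 fold change -0.058, SE 0.11, adjusted p = 0.74).

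Elsewhere, the paternally expressed Peg3 (chromosome 7, 6706882 to 6733468) was at 49.2 and 68.5 CPM in WT and at 1.85 and 0 CPM in the FIH-KO libraries (log2 fold change -6.02, SE 0.62, adjusted p = 4.7e-05), a call that DESeq2 did not make. Peg10 was at 67.7 and 76.3 CPM in WT and at 41.1 and 34.1 CPM in FIH-KO cells (log2 fold change -0.94, SE 0.15, adjusted p = 0.00093). Other imprinted genes rose: Impact was at 39.5 and 39.3 CPM in WT and at 92.8 and 83.5 CPM in FIH-KO cells (log2 fold change 1.16, SE 0.11, adjusted p = 3.1e-05), Zrsr1 rose by 1.11 (SE 0.21, adjusted p = 0.0026), and Gnas, the stimulatory G protein alpha subunit, rose by 0.69 (SE 0.12, adjusted p = 0.0015). Grb10, Mest and Sgce had adjusted p values of 0.77, 0.86 and 0.75. Zfp57, a zinc finger protein that keeps methylation at imprinted regions in the embryo, was at 13.2 and 12.8 CPM in WT and at 1.91 and 2.97 CPM in FIH-KO cells, lower without overlap (log2 fold change -2.41, SE 0.25, adjusted p = 4.7e-05). It belongs to a list of 19 tested genes of the DNA methylation machinery, 7 of which were lower and 0 higher, including Tet2 (log2 fold change -1.12, SE 0.16, adjusted p = 0.00042) and Uhrf2 (log2 fold change -0.75, SE 0.11, adjusted p = 0.00050). In all, 3 imprinted genes were higher without WT replicate 1 or FIH-KO replicate 1, and the median of the list was above 0 without WT replicate 1 and, at 0.37, with at least 10 counts in every library, a filter that drops members at or near 0 counts in FIH-KO cells. DNA methylation was not measured.

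Several genes on the X chromosome, MAGE family members among them, were higher by over 3 on the log2 scale. Of 6 tested MAGE family genes 4 were higher and 1, Ndn, was lower. Maged2 (ENSMUSG00000025268.16, chromosome X, 149589366 to 149597341) was at 1.67 and 0.474 CPM in WT and at 41.1 and 36.7 CPM in FIH-KO cells, and Magee1 at 1.22 and 1.24 CPM in WT and at 17.6 and 16.6 CPM in FIH-KO cells. In both, the FIH-KO libraries were close to each other and far above the WT libraries, with log2 fold changes of 5.195 (SE 0.33, adjusted p = 1.4e-06) and 3.79 (SE 0.31, adjusted p = 8.3e-06). Mageh1, with at most 3 counts in any WT library, was higher by at least 26.3-fold. Armcx2, of an armadillo repeat family of the X chromosome, was at 4.88 and 3.02 CPM in WT and at 59.3 and 50.7 CPM in FIH-KO cells (log2 fold change 3.80, SE 0.20, adjusted p = 5.5e-07). Developmental genes moved both ways: the caudal homeobox gene Cdx2 was at 3.86 and 3.97 CPM in WT and held at most 2 counts in an FIH-KO library, at least 22.6-fold lower, Lin28b, an inhibitor of let-7 maturation, fell by 1.97 (SE 0.29, adjusted p = 0.00048), and Hoxd9 and Hoxd10 rose by 1.13 (SE 0.15, adjusted p = 0.00031) and 1.38 (SE 0.18, adjusted p = 0.00024).

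Losses to 0 or near 0 reached other genes as well. In 80 genes that were lower, both FIH-KO libraries held 3 counts or fewer, and in 96 genes that were higher, both WT libraries did. Dock3, an exchange factor for Rac, was at 4.24 and 3.55 CPM in WT and at 0 counts in both FIH-KO libraries, at least 22.5-fold lower. Nup210, a membrane protein of the nuclear pore, held at most 2 counts in an FIH-KO library, at least 25.2-fold lower. Among the gains from this floor, Vsnl1, a calcium sensor of neurons, held at most 1 count in a WT library and was at 6.49 and 5.88 CPM in FIH-KO cells, at least 33.4-fold higher. Nxt2, a relative of an mRNA export factor, was at least 35.3-fold higher.

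Clock output genes formed a small group. Of 17 tested circadian genes 6 were higher and 0 lower (median 0.37). Per2, a repressor of the clock, was at 5.14 and 4.502 CPM in WT and at 19.2 and 21.6 CPM in FIH-KO cells, without overlap (log2 fold change 2.08, SE 0.23, adjusted p = 7.2e-05). Tef and Dbp, which bind D-box elements and follow the clock, rose by 1.37 (SE 0.15, adjusted p = 6.9e-05) and 1.78 (SE 0.25, adjusted p = 0.00035). The labels give no time of day for the collection of the cells. The count of 6 was 3 without WT replicate 1, WT replicate 2 or FIH-KO replicate 2, and without FIH-KO replicate 1 it was 4. At 1% O2 the median of the list was -0.25, of the opposite sign. Whether the medians differ was not tested.

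Changed genes also lay side by side. Neighbors were taken along each chromosome among tested genes, and 22 runs of at least 3 neighbors were found that were called in the same direction with an absolute log2 fold change over 1, 15 higher and 7 lower. They held 76 of the 1298 such genes with a position. This rule was chosen after the values were seen and has no test. The longest run was in the MHC on chromosome 17 (34400960 to 34807477), where Psmb9, Tap1, Psmb8, Tap2, Btnl7-ps and Notch4 were higher, with log2 fold changes between 1.56 (Tap2) and 2.79 (Psmb9) and Psmb8 at least 17.8-fold higher. The calls of Psmb9 and Notch4 were lost in DESeq2 and without WT replicate 1 or FIH-KO replicate 1, and that of Notch4 without WT replicate 2 as well. On the X chromosome, Armcx4, Armcx1, Armcx3, Armcx2 and Zmat1 (133587148 to 133910013) were higher by between 1.08 (Armcx1) and 3.80 (Armcx2). Complement genes C1rl, C1ra, C1s1 and C1s2 on chromosome 6 (124470055 to 124613044) were higher, by 1.48 (C1ra), 2.13 (C1rl) and 3.09 (C1s1) on the log2 scale and at least 3.75-fold (C1s2), and C1r and C1s are the proteases that start the classical complement pathway. The call of C1s2 was lost in DESeq2 and without WT replicate 1, WT replicate 2 or FIH-KO replicate 1. The lower runs included Ndn, Mkrn3 and Peg12 of the imprinted domain and Tpd52, Zbtb10 and Zfp704 on chromosome 3 (8990653 to 9675213). Zfp704 was at 60.3 and 68.2 CPM in WT and at 11.3 and 10.2 CPM in FIH-KO cells (log2 fold change -2.58, SE 0.22, adjusted p = 1.3e-05).

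**Figure D4:**
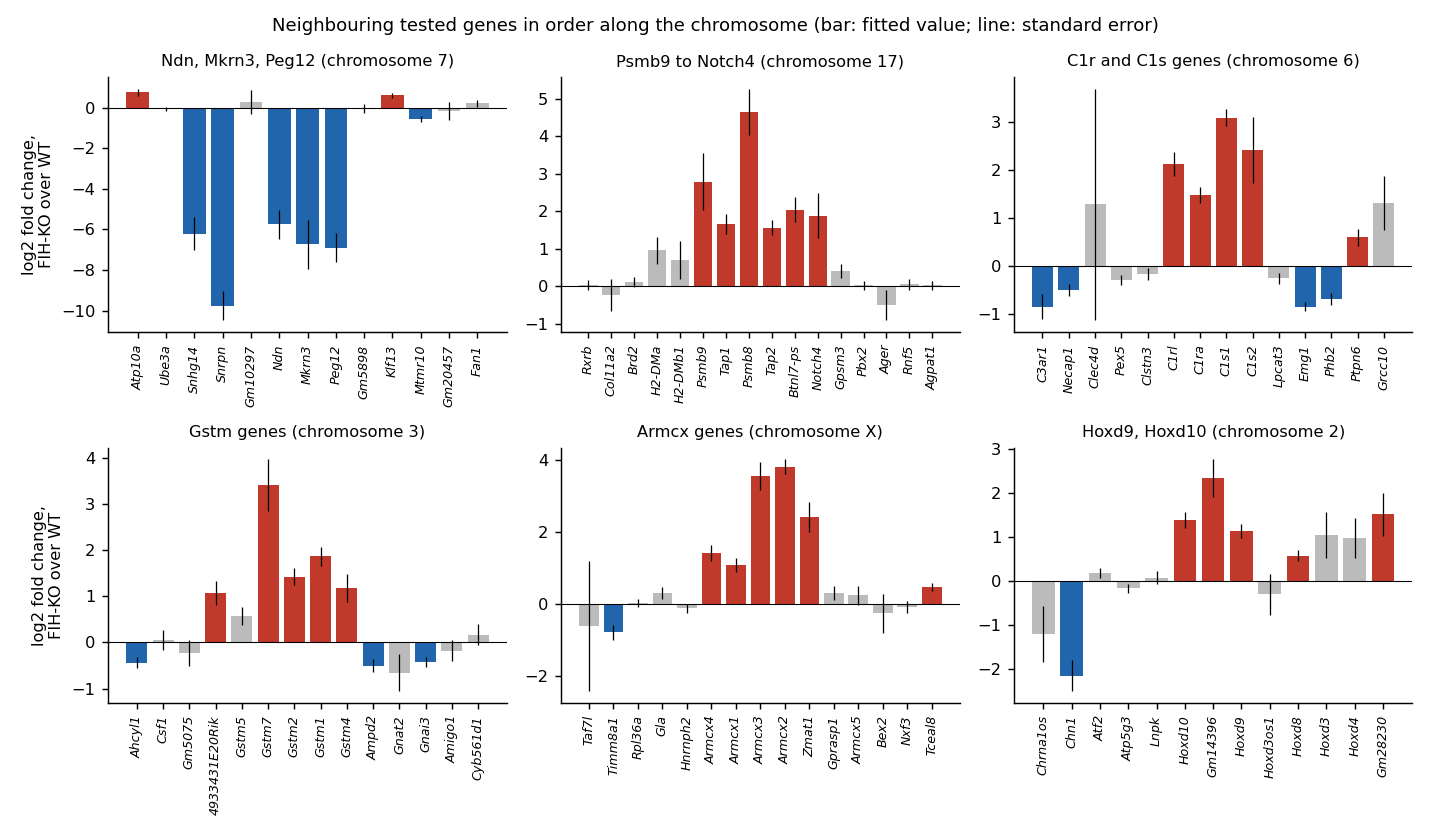
Log2 fold change (FIH-KO over WT, 21% O2) of neighboring tested genes in their order along the chromosome in 6 regions, with lines for the standard error, red for higher, blue for lower and grey for genes that did not pass. Bars of genes with 3 counts or fewer in both libraries of a group (Snrpn, Snhg14, Ndn, Mkrn3, Peg12, Psmb8 and C1s2) are fitted sizes and no bound; Ube3a, beside Snhg14, is at -0.058.

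Chromosomes differed in how many of their genes rose or fell. Chromosome 2 had 319 of 1113 tested genes higher (28.7%) and 48 lower (4.31%), with a median of 0.23 and a positive median in every window of 10 Mb. Chromosome 16 had 119 of 425 higher (28%) and 16 lower (3.76%), with a median of 0.23. On chromosome 10, with 160 of 671 genes higher (23.8%), the windows from 0 to 90 Mb had medians between 0.039 and 0.34, and those from 90 to 120 Mb between -0.12 and -0.026. Chromosomes 3 and 19 went the other way, with 242 of 683 (35.4%) and 192 of 476 (40.3%) lower. Genes named above lie on both, among them Hif1an, Tnks2, Pgam1 and Psat1 on chromosome 19 and Gar1, Ect2, Arnt and Zfp704 on chromosome 3. Their falls stand beside a lower median over their chromosomes. Some rises likewise stand beside a chromosome median above 0: those of Psap, Ddit4 and Os9 on chromosome 10, Crebbp on 16 and Hoxd9 and Hoxd10 on 2. Gstm1 and Gstm2, by contrast, rose on chromosome 3. The part of such chromosome-wide shifts in the values of single genes was not tested.

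**Figure D5:**
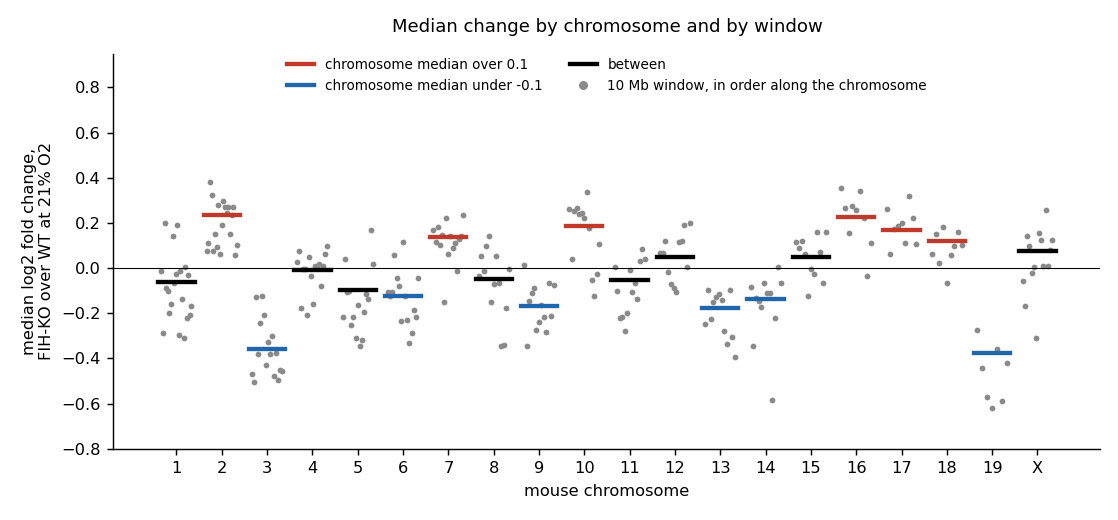
Median log2 fold change (FIH-KO over WT, 21% O2) of all tested genes on each chromosome (thick lines, red over 0.1, blue under -0.1, black between) and in windows of 10 Mb with at least 10 tested genes (grey points, in order along the chromosome). Chromosome medians run from -0.38 (19) to 0.23 (2).

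The effect of FIH loss at 21% O2 was set beside that at 1% O2, measured in other libraries of the same cells. The difference between the effects passed an adjusted p under 0.05 in 0 of 13933 genes in edgeR (925 at an unadjusted p under 0.05), whereas DESeq2 called 40 (705 at an unadjusted p under 0.05). The genes with the smallest adjusted p for the difference among those changed in normoxia were Iah1, Pdgfa, Prune2, Plekha6 and Itpr2. Pdgfa, a platelet-derived growth factor chain, was at 8.74 and 8.71 CPM in WT and at 44.7 and 35.2 CPM in FIH-KO cells in normoxia, a log2 fold change of 2.19 (SE 0.17, adjusted p = 6.1e-06) beside 0.81 in hypoxia (SE 0.16, adjusted p = 0.0028), and the difference was 1.38 (SE 0.23, adjusted p = 0.19). Itpr2, a calcium channel of the endoplasmic reticulum, had log2 fold changes of 1.16 and -0.43 (difference 1.59, SE 0.28, adjusted p = 0.19). Among the genes above, Pgam1 had -1.03 and -0.079 (difference -0.95, SE 0.18, adjusted p = 0.19), Slc16a3 -2.44 and 0.14 (difference -2.57, SE 0.50, adjusted p = 0.19) and Plod2 -0.83 and 0.11 (difference -0.94, SE 0.17, adjusted p = 0.19). The median of the glycolysis list was -0.35 in normoxia and 0.14 in hypoxia, that of p53 targets 0.40 and 0.046, and those of ribosome biogenesis (-0.62 and -0.55), lysosome and autophagy (0.61 and 0.55), interferon-stimulated genes (0.77 and 0.82) and NRF2 and glutathione (0.38 and 0.42) lay closer together. Whether the medians differ was not tested.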

How the data were processed

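RNA was read by stranded mRNA sequencing, and the authors mapped the reads to GRCm39 with STAR and obtained counts by gene from HTSeq, per their methods, while the submitters' processing notes name GRCm38 as well. Raw counts were deposited as 1 table for 8 libraries of 14519731 to 18177016 counts. How the counter treated strand and reads that match several places, and which annotation it used, is not given in the sources used here. Counts were fitted with edgeR 4.0.16 in R 4.3.3 (filterByExpr by group, TMM factors, quasi-likelihood test, 1 mean for each of 4 groups over 8 libraries, Benjamini-Hochberg adjustment over 13933 genes, threshold 0.05, two-sided). SE is the absolute log2 fold change over the square root of F. Bounds use 3 counts per library, which is 0.168 to 0.193 CPM in normoxia, and cover counting error only. On simulated counts, 85 of 100 genes changed by 1 and 97 of 100 changed by 2 on the log2 scale were called, as were 10 unchanged genes. The changed genes were drawn from those with a mean over 1 CPM, and the genes of a library shared no deviation. These shares need not hold for genes at lower levels or for the real libraries. Alternatives were DESeq2 1.42.0, other scalings and filters, the replicate block, the normoxic libraries alone and each library left out. Named genes were Hif1an and the HIF pathway, the called genes with the largest fold (10 each way, mean of at least 1 CPM in the lower group), difference in CPM (8) or bound (6), up to 3 called genes each way with the smallest adjusted p in each list, 5 by the difference from hypoxia, and cell markers. Genes named as not passing outside the HIF pathway, and Peg10, Mkrn3, Snhg14, Gabarap, Nop2, Imp4 and genes of neighbor runs named only there, were chosen after their values were seen, as were the rules for runs and printed promoters (up to 2 members of a list, by smallest adjusted p, that hold the motif). All members and lists were chosen with earlier results of these data known. Results for some genes are not reported here.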

Additional observations from a re-analysis of the deposited data

Results flagged for a closer look

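In 3 gene lists the median log2 fold change of FIH-KO over WT lay above 0 at 21% O2 and below 0 at 1% O2, with every FIH-KO library on one side of the WT libraries in normoxia and on the other in hypoxia. The difference between the effects was not tested for any of the 3. For zinc finger proteins it was 0.184 (0.114 in normoxia and -0.070 in hypoxia, 346 genes), with 30 members higher (8.67%) and 20 lower (5.78%) in normoxia, below the 15.2% and 13% of all tested genes, and the lowest adjusted p for the difference of a member was 0.27. The 30 higher members in normoxia were 13 without WT replicate 1, WT replicate 2 or FIH-KO replicate 1, and the 20 lower members were 10, 13 and 11. For histone demethylases it was 0.088 (0.025 and -0.062, 26 genes, lowest adjusted p 0.36), and for chemokines and cytokines 0.072 (0.061 and -0.011, 17 genes, lowest adjusted p 0.50). The normoxic median turned below 0 for histone demethylases without WT replicate 1 and for chemokines and cytokines without WT replicate 2. Other lists had medians of opposite sign without that separation of the libraries. Among them were circadian genes (0.374 in normoxia and -0.253 in hypoxia), AP-1 and immediate early genes (0.295 and -0.197) and growth factors (0.202 and -0.238).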

How the results depend on the processing

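With 2 libraries a group, single libraries set how many genes passed. The number of changed genes ran from 1725 to 4587 with 1 of the 8 libraries left out (higher 983 to 2400, lower 742 to 2188), and was 3928 with RLE and 3964 with upper-quartile factors, 3723 in DESeq2, 4258 without the filter, 3523 with at least 10 counts per library and 4602 in the normoxic libraries alone. Genes past an absolute log2 fold change of 2 numbered 152 with at least 10 counts and 427 to 567 with a library left out. Of 354 named genes that passed, 244 did so under every one of the 15 alternatives that gave them a value (the filter of at least 10 counts did so for 290 of the 354) and 0 reversed. Calls were lost most often without WT replicate 1 (86), FIH-KO replicate 1 (78) or WT replicate 2 (63). The difference between oxygen conditions passed in 40 genes in DESeq2, 143 without the filter, 5 with the replicate block and 0 to 17 with a library left out. Deviations of same-numbered WT and FIH-KO libraries did not correlate in normoxia (r = -0.00288) and correlated weakly in hypoxia (r = 0.193). These values cannot show whether same-numbered libraries were handled as pairs. The replicate block gave 4080 changed genes. Of genes under 1 CPM 12.8% passed, beside 35.4% of those at 100 CPM or more. The causes of these shifts were not tested.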

Other observations

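Kinds of RNA differed in how many of their genes passed. Of all tested genes 28.2% passed and 13% were lower. Of 11632 protein-coding genes 2036 were higher and 1713 lower (32.2% passed), with a median of 0.021. Of 99 small nucleolar RNA genes 0 were higher and 16 lower (16.2%, near the share of lower genes over all tested genes, median -0.79). Of 1115 processed pseudogenes 5 were higher and 34 lower (3.5% passed, median -0.22). Library preparation selected polyadenylated RNA, which holds few mature small nucleolar RNAs, and reads of a pseudogene and of its near-identical parent gene can be counted for either. Of 721 long noncoding RNA genes 66 were higher and 42 lower (15% passed, median 0.12).

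Oxidative phosphorylation, lipid synthesis and the TGF-beta family also held changed genes. Of 13 genes of the mitochondrial genome for oxidative phosphorylation 3 were higher and 0 lower, among them mt-Nd2, a subunit of complex I, at 1746 and 1640 CPM in WT and 3225 and 2748 CPM in FIH-KO cells (log2 fold change 0.82, SE 0.15, adjusted p = 0.0018), while of 79 nuclear genes 2 were higher and 22 lower. The count of 22 was 4, 8 and 10 without WT replicate 1, WT replicate 2 and FIH-KO replicate 1. The count of 3 mitochondrial genes was 1 without WT replicate 2 or FIH-KO replicate 1. Of 30 genes of cholesterol and fatty acid synthesis 11 were higher and 2 lower, but the former number was 2 without WT replicate 1, 4 without WT replicate 2 and 1 without FIH-KO replicate 1. Of 31 genes of the TGF-beta and BMP families 14 were higher and 3 lower, with 5 higher without WT replicate 1, 7 without WT replicate 2 and 9 without FIH-KO replicate 1.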
